A study of Mus musculus with 7 samples.

Results

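The Differentiated cluster of keratinocytes held 846 of the 5426 CD45neg epidermal cells whose expression was deposited, 493 of 2836 cells in the library labelled BMT and 353 of 2590 in the library labelled BMT + T cells. Its members were the cells that the authors had assigned to the cluster of that name, and the other cells fell into clusters named Basal (1684 and 1712 cells), Follicular (278 and 259), KC_Four (225 and 150) and KC_Five (156 and 116). Both libraries came from male CD45.2 C57BL/6 hosts that were lethally irradiated and given bone marrow of female CD45.1 C57BL/6 donors, with keratinocytes sorted from the epidermis at week 3 after the bone marrow transplant (BMT) and sequenced as droplet libraries by the 10x 5′ chemistry. The treatment label of one library names bone marrow only and that of the other adds T cells, while the design text describes CD4 T cells and CD8 Matahari (Mh) T cells given to hosts without setting a group apart, so comparisons below are between labels. Matahari T cells carry a receptor for a male antigen, so male hosts present their target. The study describes keratinocytes pooled from several mice, the mice within a library cannot be separated, and each label has 1 library, so no test between groups was possible and no p-value is given. Intervals are exact, at 95%, and cover counting error only; they do not cover the spread between cells or between mice.

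The epidermis is renewed from a basal layer anchored to the basement membrane. Cells that leave that layer switch from the keratin pair Krt5 and Krt14 to the pair Krt1 and Krt10, strengthen their desmosomes, and later make the lipids and cross-linked proteins of the water barrier as they pass through the spinous and granular layers. Suprabasal keratinocytes are also a known source of interleukin-34, the ligand of the CSF1 receptor on which Langerhans cells, the resident macrophages of the epidermis, depend.

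Levels are given as UMIs (unique molecular identifiers, 1 per captured transcript) pooled over the cells of a cluster in a library, per 10000 UMIs, and are written with the BMT library first. The Differentiated cells held 5304214 and 3753938 UMIs, with a median of 10113 and 10403 UMIs and 2925 and 2962 detected genes per cell, against 8053 and 8223.5 UMIs per cell in Basal. They made up 17.4% (16.0 to 18.8) of the BMT library and 13.6% (12.3 to 15.0) of the BMT + T cells library. Median mitochondrial content was 2.08% and 2.01%. The libraries shared 2 cell barcodes, 0 of them in this cluster.

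The 3 markers of the cluster were highest in it. Krt10, a type I keratin of suprabasal cells, stood at 154 and 143 UMIs per 10000 in Differentiated, against 13.4 and 13.9 in Follicular, the next highest cluster, and 6.19 and 8.92 in Basal. Differentiated cells held 83.7% and 73.8% of all Krt10 UMIs. Krt1, its type II partner, stood at 19.5 and 26.5, against 8.81 and 8.87 in Follicular and 1.52 and 2.00 in Basal. Il34 stood at 1.89 and 2.12, against 0.919 and 1.01 in Basal, so it was highest here as well but by a smaller factor. In each library the level of all 3 markers was higher in Differentiated than in any other cluster, and none of the counting intervals met. The authors drew and named the clusters from the expression of these same cells. These levels therefore describe the cluster and do not test its name. In the genome (RefSeq, GRCm38.p6), Krt10 lies at chr11:99385254-99397449, Krt1 at chr15:101845426-101850786 and Il34 at chr8:110741829-110805949.

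The start-site windows of 4 keratinocyte genes are shown: Krt10, Krt2 and Krtdap were abundant in Differentiated and higher there than in each other cluster, and Krt5 is a main keratin of Basal. Each window runs from 250 bases before to 50 after a RefSeq transcript start (GRCm38.p6), on the strand of the gene, and for Krt10 and Krt2 the gene record reaches farther upstream than this start: Krt10 at chr11:99389315-99389614 (minus strand), Krt2 at chr15:101818120-101818419 (minus), Krtdap at chr7:30787655-30787954 (plus) and Krt5 at chr15:101712856-101713155 (minus). Capitals mark matches to 1 of 5 motifs searched on both strands, which are the TATA box (TATAAA), AP-1 (TGANTCA), AP-2 (GCCNNNGGC), C/EBP (TTGCNNAA) and GRHL (AACNGGTT).
Krt10: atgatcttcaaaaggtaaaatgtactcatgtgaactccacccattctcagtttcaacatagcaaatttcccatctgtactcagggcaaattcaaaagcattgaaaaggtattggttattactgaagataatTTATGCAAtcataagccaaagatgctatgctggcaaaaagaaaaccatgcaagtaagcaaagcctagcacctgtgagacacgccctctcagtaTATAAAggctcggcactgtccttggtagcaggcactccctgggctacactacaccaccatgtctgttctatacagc
Krt2: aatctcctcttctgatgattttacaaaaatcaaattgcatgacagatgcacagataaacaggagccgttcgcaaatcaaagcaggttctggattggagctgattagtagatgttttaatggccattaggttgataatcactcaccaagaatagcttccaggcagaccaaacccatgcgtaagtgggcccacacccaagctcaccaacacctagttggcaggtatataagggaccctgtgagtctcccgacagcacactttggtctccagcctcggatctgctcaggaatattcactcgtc
Krtdap: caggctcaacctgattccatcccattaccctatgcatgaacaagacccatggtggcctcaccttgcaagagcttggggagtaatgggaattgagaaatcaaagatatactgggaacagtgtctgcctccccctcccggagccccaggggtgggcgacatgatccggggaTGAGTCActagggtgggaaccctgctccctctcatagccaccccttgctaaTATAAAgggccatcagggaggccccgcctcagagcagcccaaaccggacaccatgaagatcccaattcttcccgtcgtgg
Krt5: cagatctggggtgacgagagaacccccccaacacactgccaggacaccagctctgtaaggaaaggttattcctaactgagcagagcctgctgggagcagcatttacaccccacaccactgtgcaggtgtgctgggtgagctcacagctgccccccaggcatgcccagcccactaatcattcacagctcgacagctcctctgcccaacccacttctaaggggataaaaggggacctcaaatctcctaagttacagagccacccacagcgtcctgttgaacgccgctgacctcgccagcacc
Krt10 has a TATA box 26 bases and a C/EBP match 119 bases before this start, and Krtdap a TATA box 30 bases and an AP-1 match 81 bases before. The windows of Krt2 and Krt5 hold none of the 5 motifs in this spelling. A match is a string of letters and not a bound site. Of all 27025 RefSeq promoter windows, 14.2% hold the TATA box, 7.93% AP-1, 16.5% AP-2, 10.8% C/EBP and 2.01% GRHL.

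Across 8392 genes that reached 0.1 UMIs per 10000 in at least 1 cluster of each library, 83 were higher in Differentiated than in each of the 4 other clusters by over 1 log2 unit of level + 0.1 in both libraries (0.989% of genes tested). By the same rule 102 genes were lower (1.22%). A gene could pass the filter through any cluster, also through one where it was high. Against Basal alone, 190 genes were higher (2.26%) and 257 lower (3.06%). The clusters were drawn from these same cells, so these counts describe the clusters. Of the 83 higher genes, 65 have a RefSeq window, of which 16 hold a TATA box (24.6%), 9 AP-1 (13.8%), 13 AP-2 (20%), 10 C/EBP (15.4%) and 3 GRHL (4.62%). Of the 102 lower genes, 87 have one, of which 5 hold a TATA box (5.75%), 2 AP-1 (2.30%), 21 AP-2 (24.1%), 2 C/EBP (2.30%) and 3 GRHL (3.45%).

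Among suprabasal keratins, Krt10 had the widest gap to the nearest other cluster of the 83 higher genes, and Krt2 had rank 7. Of 6 listed genes, 4 passed the filter on low levels, all 4 were past the fold above Basal, and 3 (Krt1, Krt10 and Krt2) were past it above each cluster. The Krt10 ratio to Basal was 24.9 (24.4 to 25.5) in BMT and 16.0 (15.7 to 16.3) in BMT + T cells, and the ratio to Follicular was 11.6 and 10.3. The ratio of Krt1 to Basal was 12.8 (12.3 to 13.4) and 13.3 (12.7 to 13.8), but only 2.22 and 2.99 to Follicular. Krt2, the type II keratin of the upper spinous and granular layers, stood at 103 and 88.2, against 10.6 and 11.9 in Basal and 2.32 and 0.991 in Follicular. Krt77 was lower still in abundance, at 0.764 and 0.413, and Krt78 stood at 0.121 and 0.0852.

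The proportions among these keratins differed between some clusters and not others. Per 100 Krt10 UMIs there were 12.7 and 18.6 Krt1 UMIs in Differentiated, 11.4 and 18.7 in KC_Four, 24.6 and 22.4 in Basal, 16.2 and 7.71 in KC_Five and 65.9 and 64.0 in Follicular. For Krt2 the values were 66.6 and 61.8 in Differentiated, 172 and 133 in Basal, 198 and 273 in KC_Four, 212 and 143 in KC_Five and 17.4 and 7.15 in Follicular. The part of free RNA in the Krt10 UMIs of other clusters was not tested.

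Nearly every Differentiated cell carried Krt10 transcripts. When each cell was thinned to 2500 UMIs, 99.0% and 98.9% of Differentiated cells held a Krt10 UMI (100% in both without thinning), against 50.4% and 52.7% of Basal cells (79.7% and 80.3%). For Elovl4, a fatty acid elongase, the thinned shares were 54.4% and 47.3% against 2.14% and 2.57% (85.0% and 81.9% against 6.12% and 6.02% without thinning). For Krt1 they were 54.8% and 64.0% against 21.9% and 28.0% (70.0% and 76.5% against 40.2% and 49.6%). Krt1 was therefore far less even than Krt10 among the Differentiated cells. Its median cell had 3.36 and 6.39 UMIs per 10000 and its 90th percentile 72.6 and 96.8, whereas the median Krt10 level was 145 and 133 with a 90th percentile of 257 and 251.

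**Figure D1:**
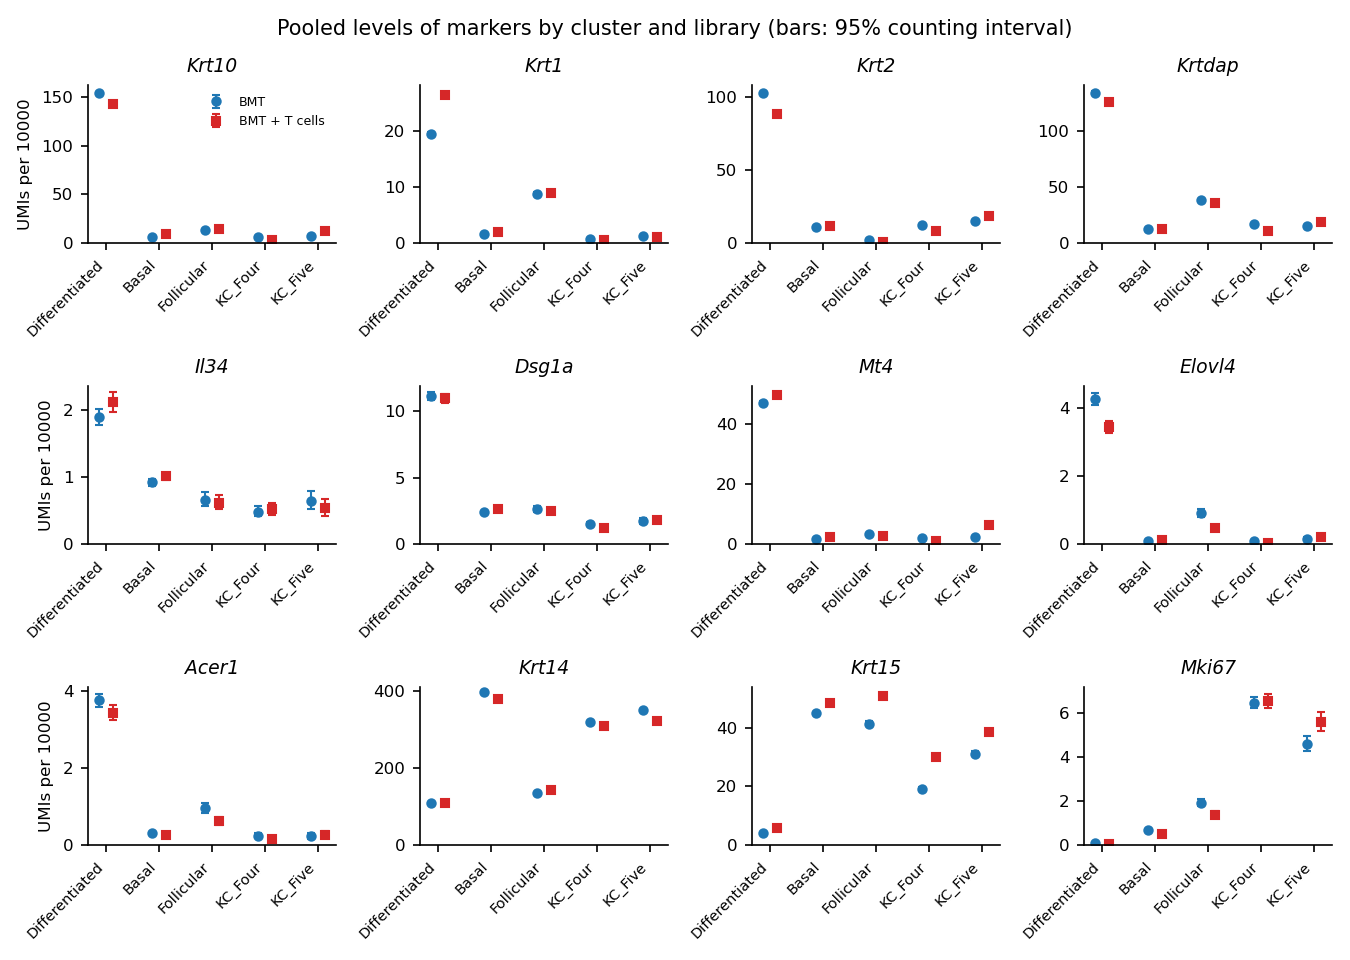
Pooled levels of 12 genes in UMIs per 10000 (linear axes from 0) by cluster, with circles for the BMT library, squares for BMT + T cells and bars for exact 95% counting intervals. Krt10, Krt1, Krt2, Krtdap, Il34, Dsg1a, Mt4, Elovl4 and Acer1 are highest in Differentiated in both libraries, and Krt14, Krt15 and Mki67 are lowest there.

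Secreted and surface products of early differentiation included the most abundant of the transcripts named here. Of 12 listed genes, all 12 passed the filter, 8 were past the fold above Basal and 3 (Krtdap, Dmkn and Endou) above each cluster. Krtdap, a small secreted protein of differentiating keratinocytes, stood at 134 and 126, against 38.1 and 35.2 in Follicular and 12.3 and 12.8 in Basal. Dmkn (dermokine) stood at 32.5 and 28.4 against 13.1 and 12.4 in Basal. Ly6d, a GPI-anchored surface protein, was the most abundant gene of the list at 174 and 173 against 82.4 and 92.6 in Basal, which is past the fold in BMT but not in BMT + T cells.

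Several genes that were high in Differentiated relative to Basal were shared with Follicular. Ly6g6c stood at 4.54 and 3.17 in Differentiated, 0.0472 and 0.0303 in Basal and 5.19 and 3.17 in Follicular. Sbsn (suprabasin) stood at 3.38 and 3.12, with 0.129 and 0.179 in Basal and 2.08 and 1.72 in Follicular. Cst6, which encodes the protease inhibitor cystatin M/E, stood at 2.58 and 1.46 but reached 71.6 and 42.5 in Follicular. The count against Basal thus includes genes whose highest level was elsewhere.

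Desmosomes, the junctions that tie keratin filaments of neighbouring cells together, were represented by 13 listed genes, of which 10 passed the filter, 6 were past the fold above Basal and 4 above each cluster. Dsg1a, a desmosomal cadherin of the upper layers, stood at 11.1 and 10.97 against 2.41 and 2.67 in Basal. Dsg1b stood at 0.662 and 0.573 against 0.107 and 0.122; it is nearly identical to Dsg1a, so reads may have been split between them. Jup (plakoglobin) stood at 7.75 and 7.77 against 3.29 and 3.72, and Pkp1 (plakophilin 1) at 6.58 and 6.43 against 2.92 and 3.16. Perp, a desmosome membrane protein, was the most abundant, at 81.5 and 74.8 against 35.4 and 34.4. Dsg3, the desmoglein of the deep layers, had the opposite order, at 0.111 and 0.192 against 0.264 and 0.304. The median log2 difference from Basal over the 10 genes was 1.17 in BMT and 1.02 in BMT + T cells, and that over all genes tested was -0.09 and -0.08.

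Enzymes of barrier lipid synthesis were higher in Differentiated than in Basal for 10 of 19 genes that passed the filter (26 listed), and 3 of them were past the fold above each cluster. Elovl4, which extends fatty acids to the very long chains of skin ceramides, stood at 4.25 and 3.43, against 0.0889 and 0.121 in Basal and 0.893 and 0.469 in Follicular. Acer1, an alkaline ceramidase, stood at 3.76 and 3.44 against 0.311 and 0.256 in Basal. Cyp4f39, a fatty acid hydroxylase, stood at 0.371 and 0.333 against 0.0141 and 0.0138. Further genes were past the fold above Basal only: Fabp5, a fatty acid carrier, stood at 14.1 and 13.0 against 0.383 and 2.29, Dgat2, which makes triglycerides, at 0.835 and 0.765 against 0.0559 and 0.0572, and Abca12, the lamellar granule lipid transporter, at 0.341 and 0.256 against 0.0135 and 0.0178. The lipoxygenase genes of the barrier were scarce, with Alox12b at 0.0490 and 0.00533 and Aloxe3 at 0.0452 and 0.0613.

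Several structural genes of the late cornified envelope were at or near 0. Of 30 listed genes, 13 passed the filter and 4 of these were past the fold above Basal. Flg, the filament-aggregating protein of the granular layer, stood at 0.00189 and 0.00799 and Hrnr at 0 and 0.00266. Tgm1, the main cross-linking transglutaminase of the layer, was at 0 UMIs in both libraries, and Lor (loricrin) at 0.113 and 0.144, below its 0.231 and 0.227 in KC_Four. Past the fold above Basal was the envelope scaffold Evpl (envoplakin), at 1.30 and 1.32 against 0.403 and 0.473 in Basal. So were Scel (sciellin), at 0.409 and 0.386 against 0.0923 and 0.0763, and Spink5, an inhibitor of skin proteases, at 1.04 and 1.06 against 0.108 and 0.0809. The last was Casp14, the caspase of cornification, at 0.207 and 0.277 against 0.0310 and 0.0395. Of these, only Casp14 was past the fold above each cluster. The 30 listed genes summed to 7.48 and 6.83 in Differentiated, 12.3 and 6.63 in Follicular, and 3.89 and 4.09 in Basal. The median log2 difference from Basal over the 13 genes was 1.22 in BMT and 0.56 in BMT + T cells.

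Among transcription factors and Notch genes of differentiation, of 26 listed genes, 20 passed the filter, 5 were past the fold above Basal and 0 above each cluster. Grhl1 stood at 1.07 and 0.956 against 0.244 and 0.224 in Basal, and Grhl3, a regulator of barrier genes, at 0.394 and 0.328 against 0.0438 and 0.0579. Cebpa stood at 1.47 and 1.49 against 0.372 and 0.391 and Notch2 at 0.905 and 0.831 against 0.279 and 0.334. Klf4, a barrier regulator, had the highest level among the factors named here, at 8.05 and 9.29 against 4.31 and 5.62. Trp63, the master factor of stratified epithelia, stood at 1.78 and 1.73 against 2.13 and 2.15. The median log2 difference from Basal over the 20 genes was 0.75 in BMT and 0.64 in BMT + T cells.

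Other genes with the widest gap to the nearest cluster were enzymes and stress proteins. Mt4, the metallothionein of stratified epithelium, stood at 47.1 and 49.5 against 1.54 and 2.47 in Basal. Serpinb12, a protease inhibitor, stood at 1.44 and 0.868 against 0.0182 and 0.00526. Ggct, which acts in glutathione turnover, stood at 5.42 and 4.19 against 0.958 and 1.06, and Gsta2, a glutathione S-transferase with close paralogs, at 1.42 and 1.08 against 0.0633 and 0.0612. Hal, which makes urocanic acid from histidine, stood at 0.377 and 0.280 against 0.0229 and 0.0164. All 5 were lower in each of the 4 other clusters.

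Lipid mediator enzymes were in the same group. Ptgs1 (cyclooxygenase 1) stood at 2.35 and 1.85 against 0.283 and 0.257 in Basal, Pla2g4f, a phospholipase, at 0.760 and 0.703 against 0.153 and 0.113, and Aldh3b2, an aldehyde dehydrogenase, at 2.88 and 2.44 against 0.579 and 0.543. Gadl1, a decarboxylase, stood at 1.40 and 1.12 against 0.0586 and 0.0263. Serpinb3b stood at 6.20 and 6.28 against 1.81 and 1.85 and Skint5 at 0.562 and 0.493 against 0.0492 and 0.0447; both belong to families of close paralogs. The predicted genes Gm94 (2.98 and 1.78 against 0.0377 and 0.0309) and Gm20627 (1.07 and 0.892 against 0.0761 and 0.0987) were named by the same rule, as were Krt10, Krt2, Krtdap, Elovl4, Dsg1a and Acer1.

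Basal genes were low but not absent. Krt5 stood at 39.8 and 50.4 in Differentiated against 179 and 176 in Basal, and Krt14 at 109 and 108 against 396 and 379. Krt15, a keratin of undifferentiated basal cells, stood at 4.22 and 5.82 against 45.1 and 48.5 in Basal and was past the fold below each cluster. Of 12 genes of the hemidesmosome and basement membrane, which hold basal cells to the dermis, all 12 passed the filter, 8 were past the fold below Basal and 2 (Itgb1 and Lamb3) below each cluster. Itgb1, the integrin β1 subunit, stood at 0.454 and 0.602 against 1.91 and 2.08 in Basal, and Lamb3, a laminin-332 chain, at 0.134 and 0.205 against 1.17 and 1.34. Col17a1, the transmembrane collagen of the hemidesmosome, was still at 4.82 and 6.07 against 10.5 and 11.6.

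Cell cycle transcripts were low but present, and the 19 listed genes summed to 2.30 and 2.28 in Differentiated against 10.0 and 7.60 in Basal. Of 19 listed genes, all 19 passed the filter, 14 were past the fold below Basal and 10 below each cluster. Mki67 stood at 0.0716 and 0.0346 against 0.658 and 0.508 in Basal and 6.47 and 6.54 in KC_Four. Cenpf, a kinetochore protein, stood at 0.0151 and 0.0107 against 0.565 and 0.386 in Basal. Dut, which clears dUTP during DNA synthesis, stood at 0.149 and 0.128 against 1.37 and 1.09. Growth factor and matrix genes among the lowest were Ptn (pleiotrophin), at 0.362 and 0.336 against 3.41 and 3.16, and Sparc, at 0.211 and 0.189 against 2.34 and 2.45. Dlk2, a Notch-pathway membrane protein, stood at 0.0264 and 0.0186 against 1.11 and 1.02, and Ctnnal1 (alpha-catulin) at 0.0377 and 0.0240 against 0.936 and 0.963. Prxl2a (0.486 and 0.535 against 3.55 and 2.93) and Crip1 (1.04 and 0.836 against 4.69 and 3.89) were the other genes named as lowest.

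Signals that act on Langerhans cells and their precursors went in both directions. Of 16 listed genes, 14 passed the filter, 0 were past the fold above Basal, 5 were past it below Basal and 3 (Tgfb1, Jag2 and Cxcl14) below each cluster. The ratio of Il34 to Basal was 2.06 (1.90 to 2.23) and 2.10 (1.92 to 2.29), which on the scale of level + 0.1 falls just short of the fold. Its ratio to Follicular was 2.85 (2.42 to 3.37) and 3.45 (2.88 to 4.17), to KC_Four 3.90 (3.31 to 4.61) and 4.08 (3.38 to 4.96), and to KC_Five 2.92 (2.38 to 3.61) and 3.996 (3.12 to 5.20). Because Basal held more cells, it contributed 48.5% and 57.6% of all Il34 UMIs of the keratinocytes, and Differentiated 35.7% and 29.8%. The thinned share of cells with an Il34 UMI was 35.9% and 39.7% in Differentiated and 20.1% and 21.9% in Basal (73.4% and 77.9% against 47.9% and 50% without thinning).

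Csf1, the other ligand of the same receptor, stood at 0.211 and 0.280, against 0.126 and 0.168 in Follicular, 0.0903 and 0.138 in Basal, 0.0564 and 0.0447 in KC_Four and 0.0691 and 0.0781 in KC_Five. Its counting intervals in Differentiated and Follicular overlapped. Tgfb1, which Langerhans cells need for their residence, stood at 0.0339 and 0.0506 against 0.347 and 0.357. The Notch ligand Jag2 stood at 0.104 and 0.170 against 1.36 and 1.61 in Basal, and Jag1 at 0.637 and 0.610 against 0.821 and 0.857 in Basal and 1.43 and 1.68 in Follicular. Cxcl14, a chemokine of healthy epidermis, stood at 1.04 and 0.426 against 6.42 and 3.93 in Basal. Epcam stood at 0.664 and 0.424 against 4.36 and 4.34 in Follicular.

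Among alarmins and cytokines, 8 of 13 listed genes passed the filter, 0 were past the fold above Basal and 1 (Il1r2) was past it below. Il1r2, the decoy receptor for interleukin-1, stood at 0.162 and 0.139 against 2.15 and 2.25. Il33, a nuclear alarmin, stood at 1.32 and 1.47 against 2.48 and 2.88, and Tslp at 0.524 and 0.698 against 0.434 and 0.314. Of 4 stress keratins, 0 were past the fold in either direction; Krt16 stood at 2.18 and 2.51 against 0.450 and 2.13. Of 14 tight and adherens junction genes, 12 passed the filter, with Nectin4 past the fold above Basal (0.662 and 0.589 against 0.0269 and 0.0408) and Cdh3, the cadherin of basal cells, past it below (0.194 and 0.232 against 0.600 and 0.632).

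Markers of other cell types were near 0 in Differentiated. The 12 leukocyte genes summed to 12 and 6 UMIs (0.0226 and 0.0160 per 10000), with Ptprc at 0 in both libraries. The 6 fibroblast genes summed to 2 and 0 UMIs, the 4 endothelial genes to 3 and 4, the 5 melanocyte genes to 16 and 11, and the 5 Merkel cell genes to 0 and 0. The 12 hair follicle genes summed to 1.33 and 0.733 per 10000, against 100.2 and 125 in Follicular, and the 8 sebaceous genes to 1.99 and 2.06, against 16.0 and 10.1. Of the follicle genes that passed the filter (8), Defb6 was past the fold above Basal, at 0.368 and 0.232 against 0.0754 and 0.0618, and Lgr6 below each cluster. Of the 5 sebaceous genes that passed, 0 were past the fold in either direction.

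The cluster was wide along the keratin switch. For each cell the UMIs of Krt1 and Krt10 were taken as a percent of those of Krt1, Krt10, Krt5 and Krt14. The median of this keratin share was 71.4% and 73.9% in Differentiated and 0.560% and 0.667% in Basal. The 10th and 90th percentiles in Differentiated were 12.9% and 98.5% in BMT and 14.4% and 99.0% in BMT + T cells. A share over 50% was found in 313 of 493 cells (63.5%) and 219 of 353 cells (62.0%), while 36 (7.30%) and 25 (7.08%) cells lay under 10%. In Follicular, 26 (9.35%) and 21 (8.11%) cells lay over 50%. Both libraries had this same wide span.

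**Figure D2:**
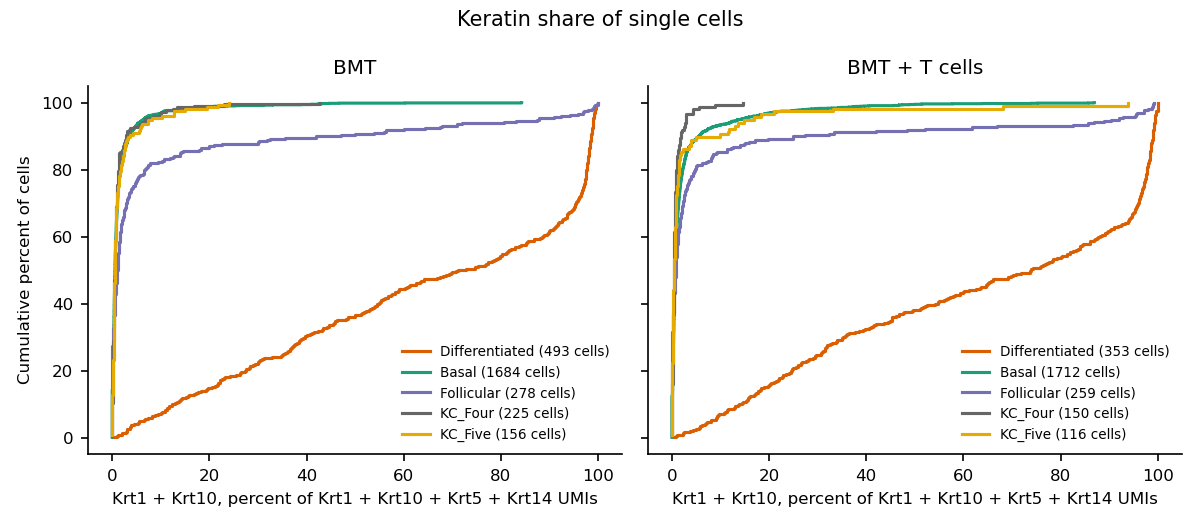
Cumulative percent of cells (vertical axis) against the keratin share, the percent of Krt1 and Krt10 among Krt1, Krt10, Krt5 and Krt14 UMIs (horizontal axis), for each cluster in the BMT (left) and BMT + T cells (right) libraries. Differentiated cells spread over the whole axis with medians of 71.4% and 73.9%, while cells of the other clusters mostly lie close to 0%.

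Differentiated cells were ordered by their keratin share and divided into quintiles, of 98 or 99 cells in BMT and 70 or 71 in BMT + T cells. The median share was 12.9% in the lowest quintile and 98.5% in the highest of BMT, and 14.3% and 99.0% in BMT + T cells. Of the 83 genes higher in the cluster, 81 are not among the 4 keratins that set the order. For 78 of these 81 the level was higher in the highest than in the lowest quintile of both libraries, by over 2-fold for 37. Of the 102 genes lower in the cluster, 94 were lower in the highest quintile, 72 of them by over 2-fold. The matching shares over all genes tested were not computed, so these counts have no background to be set against. All these genes were chosen on the same cells, and the counts describe an ordering, not a time course. Median UMIs per cell were 9707 in the lowest and 11558 in the highest quintile of BMT, and 10424 and 11380.5 in BMT + T cells.

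Several genes, among them the lipid enzyme genes Elovl4 and Dgat2, differed widely between the quintiles. Elovl4 went from 1.61 in the lowest to 8.002 in the highest quintile in BMT and from 1.34 to 6.32 in BMT + T cells. Dgat2 went from 0.214 to 1.61 and from 0.158 to 1.71, Sbsn from 0.915 to 7.33 and from 1.21 to 6.27, and Serpinb12 from 0.0486 to 4.56 and from 0.0657 to 2.12. Krtdap went from 61.7 to 203 and from 59.6 to 188. Desmosome genes had a narrower range, with Dsg1a 2.33 and 2.01 times and Perp 1.42 and 1.35 times as high in the highest quintile as in the lowest. Krt15 went the other way, from 9.44 to 0.340 and from 11.7 to 0.887, as did Il33, from 2.08 to 0.340 and from 2.56 to 0.570.

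Il34 was nearly flat across the same order. Its levels from the lowest to the highest quintile were 1.96, 2.07, 1.82, 2.05 and 1.60 in BMT and 2.21, 2.10, 2.26, 2.01 and 2.05 in BMT + T cells. The ratio of the highest to the lowest quintile was 0.818 (0.667 to 1.00) and 0.930 (0.745 to 1.16). Even the lowest quintile, with a median keratin share of 12.9% and 14.3%, was therefore above the Basal level of 0.919 and 1.01. Among the regulators, Cebpa went from 0.739 to 2.31 and from 0.814 to 2.48, whereas Trp63 was at 1.86 and 1.73 in BMT and 1.62 and 1.80 in BMT + T cells.

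**Figure D3:**
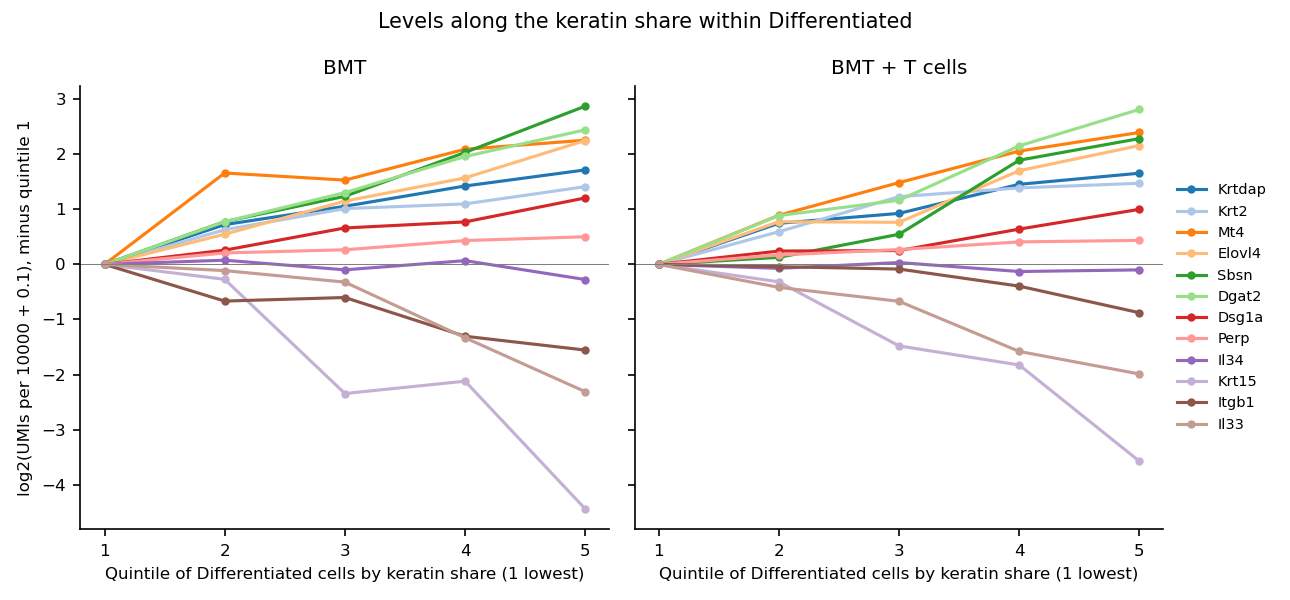
Levels of 12 genes in quintiles of the Differentiated cells ordered by keratin share, as log2(UMIs per 10000 + 0.1) minus the value of the lowest quintile, for BMT (left) and BMT + T cells (right). Sbsn, Dgat2, Mt4 and Elovl4 climb most, Krt15 and Il33 decline, and Il34 stays near 0.

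Between the labels, few genes in Differentiated differed by over 1 log2 unit of level + 0.1. Of 7284 genes that reached 0.1 UMIs per 10000 in Differentiated of either library, 14 were higher in BMT + T cells (0.192%) and 10 lower (0.137%), with a median difference of 0.01 on the log2 scale over all of them. In Basal 38 genes were higher and 4 lower of 7612 tested. Each label is 1 library, so label, mice and library preparation cannot be told apart. Among the cluster's own markers, Krt10 and Il34 stayed close. The ratio of BMT + T cells to BMT was 0.925 (0.915 to 0.935) for Krt10 and 1.12 (1.02 to 1.23) for Il34. Krt1 was higher in BMT + T cells, at a ratio of 1.36 (1.32 to 1.40). Its median cell stood at 3.36 UMIs per 10000 in BMT and 6.39 in BMT + T cells.

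Genes of antigen presentation made up most of the higher group. All 15 of the class I presentation genes tested lay above 0 in Differentiated, against 51.7% of all 7284 genes tested. Their median log2 difference was 0.69, and 4 were past the fold (B2m, Tap1, Psmb8 and H2-Q7). H2-K1, a class I heavy chain, stood at 9.07 in BMT and 17.6 in BMT + T cells, and H2-D1 at 9.79 and 15.9. B2m, the class I light chain, stood at 1.12 and 2.61, and Psmb8, an immunoproteasome subunit, at 0.270 and 0.850. H2-Q7 stood at 0.170 and 0.786; reads of H2-K1, H2-D1, H2-Q4 and H2-Q7 may be split among these similar genes.

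Class II genes, which keratinocytes express under interferon-γ, had a median of 1.78 over the 5 tested, and 4 were past the fold. Cd74, the invariant chain, stood at 0.185 and 1.61, a ratio of 8.69 (7.01 to 10.9). It was found in 4.67% of Differentiated cells in BMT and 17.8% in BMT + T cells (1.83% and 11.9% after thinning), against 5.52% and 19.3% of Basal cells (3.09% and 12.9%), and 1 cell held 41.8% of its UMIs in BMT and 9.62% in BMT + T cells. H2-Ab1 stood at 0.0358 and 0.373, H2-Aa at 0.0754 and 0.501, and H2-Eb1 at 0.202 and 0.618. The 12 leukocyte markers summed to 12 and 6 UMIs in Differentiated, a ratio of 0.706 (0.218 to 2.03), with Ptprc at 0, and to 38 and 134 UMIs in Basal, a ratio of 3.44 (2.39 to 5.08). The part of leukocyte RNA in the class II levels was not tested.

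Summed over each list, the ratio of BMT + T cells to BMT in Differentiated was 1.69 for class I against 1.74 in Basal, and 6.05 for class II against 6.11. In Follicular, KC_Four and KC_Five it was 1.83, 1.75 and 1.63 for class I and 2.68, 3.43 and 5.12 for class II. For the interferon-induced GTPases, of which 3 passed the filter, it was 1.91 (1.61 to 2.26) in Differentiated and 3.97 (3.69 to 4.29) in Basal, 2.21 (1.80 to 2.73) in Follicular, 8.48 (6.75 to 10.8) in KC_Four and 2.59 (2.03 to 3.32) in KC_Five. Iigp1 stood at 0.205 and 0.376 in Differentiated, a ratio of 1.83 (1.41 to 2.37), and at 0.259 and 1.21 in Basal, a ratio of 4.65 (4.16 to 5.20). The log2 difference of these ratios was -1.35, with a counting interval of -1.74 to -0.95. Gbp2 had ratios of 1.56 (1.11 to 2.19) and 3.35 (2.88 to 3.92). The summed GTPase ratio was thus lower in Differentiated than in Basal and KC_Four, and its interval overlapped those of Follicular and KC_Five. With 1 library a label these differences were not tested over samples. The 7 interferon-response regulators tested had a median of 0.37 in Differentiated, with 1 past the fold above (Cxcl9) and 1 below (Ccl5), and both of these rested on single cells.

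**Figure D4:**
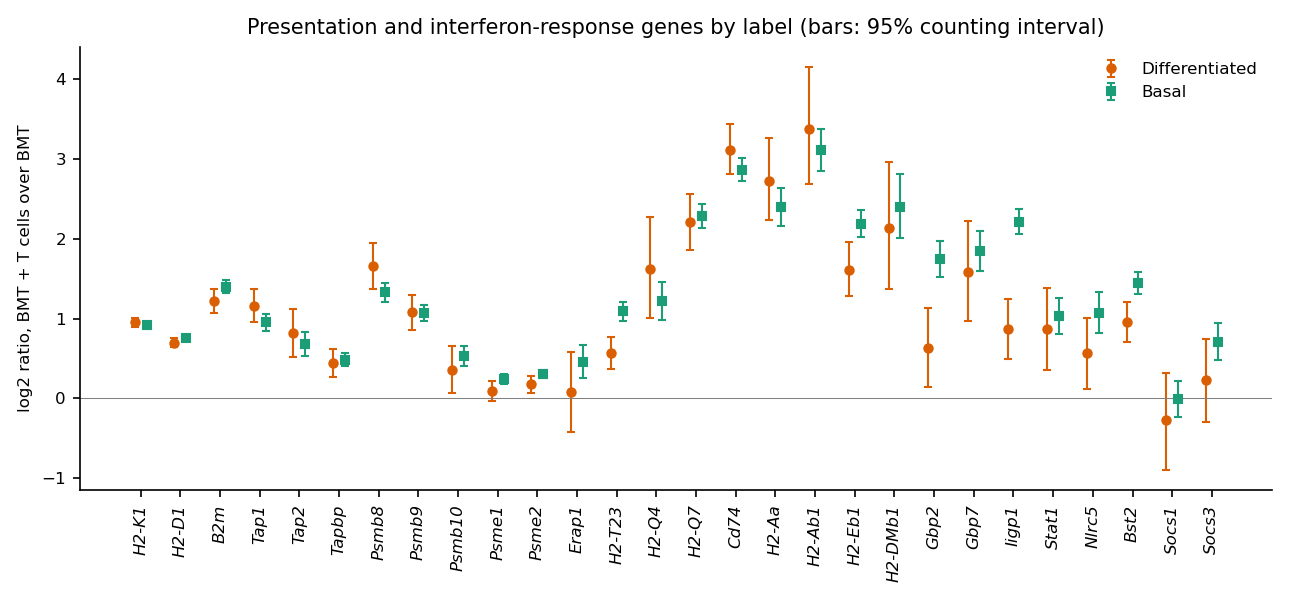
Log2 ratio of the level in BMT + T cells to that in BMT for presentation and interferon-response genes tested, in Differentiated (circles) and Basal (squares), with exact 95% counting intervals; Cxcl9 and Ccl5, whose UMIs came mostly from single cells, are not drawn. Most class I and class II genes lie above 0 in both clusters, and Iigp1 and Gbp2 lie lower in Differentiated.

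Other genes higher in BMT + T cells were Ifi27l2a, an interferon-induced gene, at 1.27 and 3.93 (ratio 3.10, 2.83 to 3.405), and the immediate early gene Fos, at 0.483 and 1.18 (2.44, 2.09 to 2.86). Of 13 immediate early and heat shock genes tested, 2 (Fos and Atf3) were past the fold, and the median over the list was 0.24. Cxcl9, an interferon-γ-induced chemokine, went from 2 to 55 UMIs, but 1 cell held 89.1% of the 55. The remaining higher genes of the 14 were Mfge8 (0.0584 and 0.242), Rtp4 (0.0848 and 0.277), Tap1 (0.594 and 1.33) and Atf3 (0.294 and 0.693).

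Pyy, the gene of a gut peptide hormone, had the widest difference in the other direction, at 6.33 in BMT and 0.418 in BMT + T cells, 15.1-fold lower (12.9 to 17.9). It was lower in all 5 clusters, so the difference was not particular to Differentiated. Sprr2a3, one of several near-identical small proline-rich genes, stood at 1.52 and 0.301, and Gsdmc, a gasdermin, at 0.530 and 0.184. Alox12e, an epidermal lipoxygenase, stood at 1.59 and 0.674, and 2310046K23Rik at 0.956 and 0.413. The chemokine genes Cxcl14 (1.04 and 0.426) and Ccl27a (2.42 and 1.11) and the growth factor binding gene Fgfbp3 (0.583 and 0.208) were also past the fold. Krt17, at 0.833 and 0.309, and Ccl5, at 150 and 0 UMIs, each rested on 1 cell of the BMT library, which held 84.4% and 100% of their UMIs.

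**Figure D5:**
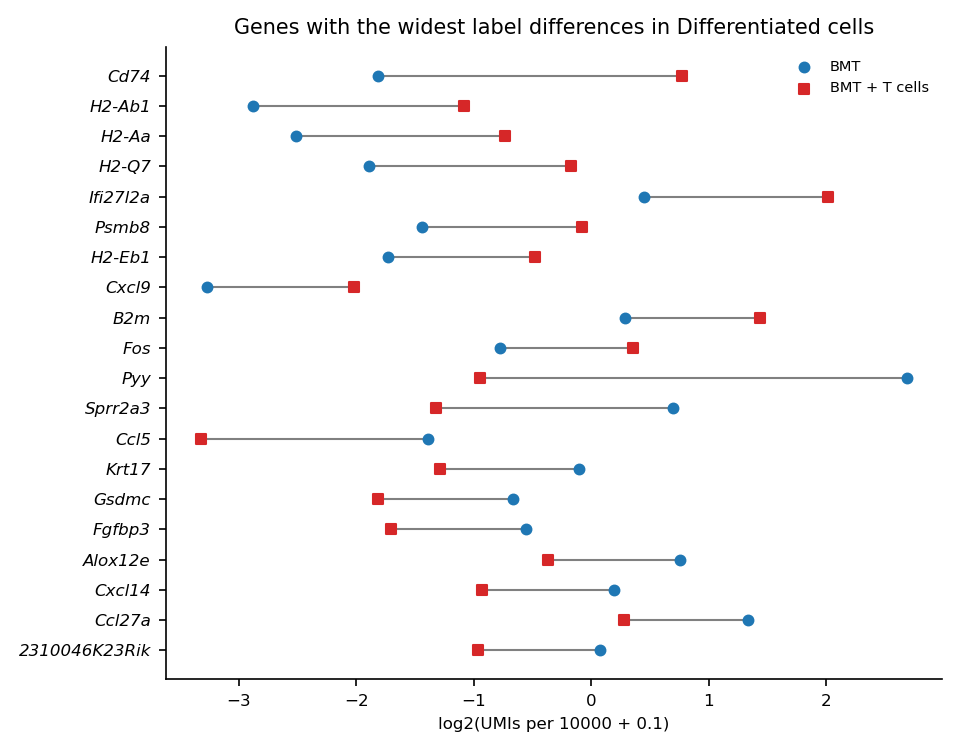
Levels of the 10 genes highest and the 10 lowest in BMT + T cells against BMT within Differentiated, as log2(UMIs per 10000 + 0.1), with circles for BMT, squares for BMT + T cells and a line joining the pair. Cd74 and the H2 genes lie higher in BMT + T cells, and Pyy has the longest line in the other direction, from 6.33 to 0.418 UMIs per 10000.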

How the data were processed

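CD45neg keratinocytes of mouse epidermis were profiled in 2 droplet libraries. Per the submitters' processing notes, kallisto, bustools, Seurat and GRCm38 were used; versions are not given in the sources used here. The authors removed cells with few genes or high mitochondrial content and removed doublets with DoubletFinder, normalised the counts and clustered the cells with the Leiden algorithm. The deposited expression values are the natural log of 1 plus UMIs per 10000, and the deposited metadata give mitochondrial percent, UMIs and the cluster per cell. UMIs were recovered by inverting the log: 15311900 of 15311900 values were whole within 0.001, over 26383 genes and 5426 cells. Cells were grouped by the authors' cluster names and not reclustered, and doublets were not called again. UMIs were summed per cluster and library, and differences taken on log2(level + 0.1) with a filter of 0.1 UMIs per 10000 and a fold of 1 log2 unit. With 1 library a label no model was fitted. Intervals are exact Clopper-Pearson (shares), Poisson (levels) and conditional binomial (ratios), and a count of 0 allows up to 3 UMIs. Thinning drew 2500 UMIs per cell; the shallowest cell had 2866, so none was left out. The libraries held 27817737 and 24959785 UMIs, which sets the precision of each interval.

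Named genes are those of 25 lists, the 20 with the widest and the 10 with the most negative gap to the nearest cluster in the less different library, and the 10 highest and 10 lowest between labels. Some genes that the rules name are not reported here. The members and lists were chosen with earlier results of these data known. Alternatives were the pseudocount, the filter, thinning, the mean over cells and each library alone. Exact intervals came from SciPy 1.17.1, tables from pandas 2.3.3 with NumPy 2.4.6, and plots from matplotlib 3.10.9, all under Python 3.11.15. The code was tested on simulated data. Positions and promoter windows are from RefSeq (GRCm38.p6).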

Additional observations from a re-analysis of the deposited data

Results flagged for a closer look

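In 3 genes the ratio of BMT + T cells to BMT in Differentiated was opposite in direction to that in Basal, with both counting intervals off 1 and over 1 log2 unit apart. The search covered only the listed genes and those past the fold between clusters or labels. The count of 3 is therefore not a count over all genes tested, and its background share was not computed. The difference was not tested, since each label has 1 library. Fabp5 had a ratio of 0.919 (0.887 to 0.953) in Differentiated and 5.97 (5.47 to 6.54) in Basal, where 1 cell held 38.8% of its UMIs in BMT + T cells. Sprr1a, a cornified envelope precursor, had a ratio of 0.410 (0.295 to 0.562) in Differentiated and 3.64 (2.60 to 5.20) in Basal, where 1 cell held 88.4% of its UMIs in BMT + T cells. Ccl5 had a ratio of 0 in Differentiated, from 150 UMIs in 1 cell of BMT to 0 of 353 cells in BMT + T cells, which allows a share of cells with a UMI, not of cells expressing the gene, of up to 0.850%; its ratio in Basal was 11.7 (5.71 to 27.9), with 71.9% of the 96 UMIs of BMT + T cells in 1 cell. The part of these single cells in the differences was not tested.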

How the results depend on the processing

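No paired analysis was possible because each label has 1 library and no test was run. Of 59 alternatives to counts, shares and list medians, 32 kept the value and 27 moved it. Kept means within 1.5 times (counts) or within the counting interval (shares, and medians by that of the summed ratio). Of 90 alternatives to single-gene ratios, 36 stayed within the counting interval of the main ratio and 54 moved out of it. Across both kinds 0 were sorted as reversed, but a count or a share has no direction to reverse. The ratios of Krt10, Krt1 and Il34 between clusters were sorted only as kept or moved. All of these stayed above 1, the lowest at 1.90 (Il34 to Basal after thinning). Some of the 32 could not have moved. The shares were retaken without cells under the thinning depth, and no cell lay under it. At the main pseudocount of 0.1, a gap over 1 log2 unit already needs a level over 0.1 on the higher side. Leaving out the filter therefore could not change the counts of genes past the fold. The pseudocount moved the counts most. With 1 in place of 0.1, 23 genes were higher than each cluster and 11 lower, and 2 were higher and 1 lower between labels; with 0.01 the counts were 128, 343, 33 and 21. Thinning gave 25 genes higher between labels, of which 12 were shared with the main setting. It gave 10 lower, of which only 4 were shared, so a kept count need not hold the same genes. Averaging over cells gave 5 lower. With either library alone, 103 to 108 genes were higher and 123 to 151 lower. The median log2 difference between labels of the GTPases was 0.64 with the main settings, 0.16 with pseudocount 1 and 0.16 with no filter. That of the interferon regulators was 0.093 with pseudocount 1, 0.54 with 0.01, 0.038 with no filter, 0.82 with a filter of 0.5 and 0.21 as the mean over cells. That of class I was 0.27, 0.80, 0.66, 0.82 and 0.63 under the same 5 settings and 0.61 after thinning. That of class II was 0.43 with pseudocount 1, 2.58 with 0.01, 1.25 with no filter and 2.00 after thinning. The cause was not tested beyond the settings themselves. Depth limits genes of few UMIs, and intervals do not cover the spread between mice.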
